A study of Mus musculus with 12 samples.

Results

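Histone genes named for the H1, H2A, H2B, H3 and H4 families were followed in total RNA from cultured mouse hippocampal neurons after a pulldown aimed at Gas5, a noncoding transcript whose introns carry small nucleolar RNAs. Members were the rows of the total RNA table whose symbol was H1f, H2ac, H2bc, H3c or H4c followed by a number, 70 of 49489 rows. They comprised 11 H1, 18 H2A, 17 H2B, 12 H3 and 12 H4 genes. The neurons came from newborn mice and were cultured to day 16 in vitro, with no genotype, strain or treatment named in the labels. There were 3 antisense and 3 sense libraries. The labels do not say which of these was the capture and which the control, and they name no separate cultures or animals behind the 3 libraries of each group. The p-values therefore rest on a spread between libraries that may be technical.

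Histones package DNA: H2A, H2B, H3 and H4 form the nucleosome core, and H1 binds the linker DNA between cores. Most genes of these families are replication-dependent, which means that they are short, lack introns, lie in clusters and are transcribed in S phase into transcripts that end in a stem-loop in place of a poly(A) tail. Neurons no longer divide and are known to rely on replication-independent histone genes such as H3f3b and H2az1, and on H1f0, the linker histone of resting cells, whose transcripts are polyadenylated. The symbol rule also took in genes that are not replication-dependent or not clustered, among them H1f0, H1f10 and the germ cell genes H1f6, H1f7, H1f8 and H1f9.

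In the RefSeq table of assembly GRCm38.p6, 68 of the 70 symbols had a position, and H1f9 and H2bc24 had none. On chromosome 13, between bases 21715711 and 23934913, lay 54 members, and 10 lay on chromosome 3 between bases 96219885 and 96270192. The others were H1f0 and H1f7 on chromosome 15 and H1f8 and H1f10 on chromosome 6. No gene of that table overlapped a member, apart from the noncoding genes Gm33516 at H2ac1 and H2bc1 and Gm33387 at H2bc6.

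RefSeq windows from 250 bases before to 50 bases after the gene start, build GRCm38.p6, existed for 62 members. The letters CCAAT, searched on both strands, were in the windows of 51 of the 62 members (82.3%) and in 37.4% of all 32851 windows. They were in all 17 H2A, all 14 H2B and all 10 H3 windows, in 7 of 10 H1 windows and in 3 of 11 H4 windows. The letters TATAAA, searched likewise, were in 34 of 62 members (54.8%) against 13.6% of all windows. The octamer ATTTGCAT, known from H2B promoters, was in 7 of 14 H2B and 6 of 17 H2A windows, in no H1, H3 or H4 window and in 1.74% of all windows. A match describes the letters only. The windows of H1f0, H1f7, H1f10, H4c2 and H4c8 held neither TATAAA nor CCAAT.

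The 250 bases before the start are shown for H1f4, a linker histone gene with the usual elements, and for H2ac24, H1f0 and H1f7, whose levels differed between the groups below. They run 5′ to 3′ on the gene's strand, with TATAAA and CCAAT on either strand in capitals. The positions are chr13:23622559-23622808 (minus strand) for H1f4, chr13:21833476-21833725 (minus) for H2ac24, chr15:79027962-79028211 (plus) for H1f0 and chr15:98257308-98257557 (minus) for H1f7.
H1f4: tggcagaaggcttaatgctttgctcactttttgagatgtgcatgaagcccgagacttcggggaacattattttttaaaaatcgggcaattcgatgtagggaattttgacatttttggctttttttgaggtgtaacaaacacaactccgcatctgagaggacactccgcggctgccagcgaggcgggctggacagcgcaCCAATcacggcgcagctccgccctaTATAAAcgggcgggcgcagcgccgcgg
H2ac24: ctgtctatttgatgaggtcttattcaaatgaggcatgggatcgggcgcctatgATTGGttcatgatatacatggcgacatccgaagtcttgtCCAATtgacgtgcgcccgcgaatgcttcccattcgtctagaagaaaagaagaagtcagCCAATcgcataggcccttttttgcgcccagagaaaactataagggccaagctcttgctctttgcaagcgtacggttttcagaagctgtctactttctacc
H1f0: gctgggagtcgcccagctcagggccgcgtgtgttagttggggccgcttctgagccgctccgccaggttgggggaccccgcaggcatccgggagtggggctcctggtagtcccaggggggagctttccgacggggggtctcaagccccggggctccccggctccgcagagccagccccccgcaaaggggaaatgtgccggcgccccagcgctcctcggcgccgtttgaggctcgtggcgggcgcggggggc
H1f7: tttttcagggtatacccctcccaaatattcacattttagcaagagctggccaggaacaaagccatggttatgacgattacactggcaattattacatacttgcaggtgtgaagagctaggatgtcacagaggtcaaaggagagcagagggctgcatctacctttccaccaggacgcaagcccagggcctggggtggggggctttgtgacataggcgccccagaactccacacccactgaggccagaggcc
H1f4 carries both elements close to its start and H2ac24 carries CCAAT, on one strand or the other, at 3 places. H1f0 and H1f7 show no capitals, which says only that these letters are not in these bases.

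H2ac18 and H2ac19 are shown as a pair of copies whose values are set side by side below. Their transcripts were not compared, and how reads were assigned between them was not tested. In capitals is the longest run that the 250 bases before the 2 starts share, 169 bases, at chr3:96245247-96245496 (plus) for H2ac18 and chr3:96240375-96240624 (minus) for H2ac19.
H2ac18: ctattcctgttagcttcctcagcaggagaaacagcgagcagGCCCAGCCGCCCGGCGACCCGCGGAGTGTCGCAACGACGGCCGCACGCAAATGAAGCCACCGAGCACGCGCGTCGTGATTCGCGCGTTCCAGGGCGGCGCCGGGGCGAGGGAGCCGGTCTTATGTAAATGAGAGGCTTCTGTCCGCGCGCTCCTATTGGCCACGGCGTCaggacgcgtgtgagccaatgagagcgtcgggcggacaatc
H2ac19: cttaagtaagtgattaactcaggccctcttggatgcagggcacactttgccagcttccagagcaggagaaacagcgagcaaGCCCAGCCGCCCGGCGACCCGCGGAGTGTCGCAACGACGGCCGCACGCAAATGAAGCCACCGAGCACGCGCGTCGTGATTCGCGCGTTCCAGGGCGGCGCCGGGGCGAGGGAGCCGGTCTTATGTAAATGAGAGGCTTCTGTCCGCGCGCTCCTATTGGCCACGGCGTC
The run begins at base 42 in H2ac18 and at base 82 in H2ac19, so the annotated start of H2ac19 lies 40 bases further upstream on the shared sequence. Among 372 pairs of members of the same family the median longest shared run of the full windows was 9 bases. It was over 50 bases for 5 pairs: 285 for H4c17 and H4c18, 231 for H3c14 and H3c15, 219 for H2ac18 and H2ac19, 200 for H2ac23 and H2ac24 and 72 for H4c11 and H4c12.

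Libraries held 5775052 to 6293093 counts in the antisense group and 6478779 to 10424167 in the sense group. Gas5 took 9.71% to 14.2% of the antisense counts and 32.7% to 57.1% of the sense counts. In every antisense library Gas5 was below every sense library (log2 fold change -2.78 on the TMM scale, SE 0.286, edgeR adjusted p = 3.76e-06). Levels are given as CPM, counts scaled to a common library size by TMM, a method that sets most genes equal between libraries. Neuronal markers were present, with summed levels over 8 genes of 832 to 1057 CPM in antisense and 1052 to 1313 CPM in sense. Markers of 6 astrocyte genes summed to 1119 to 1389 and 1294 to 1668 CPM, and those of 6 oligodendrocyte lineage genes to 296 to 343 and 341 to 459 CPM, so the cultures held more than neurons. Markers of 5 microglial genes (16.8 to 20.1 against 8.46 to 10.99 CPM) and of 6 vascular and fibroblast genes (60.5 to 63.5 against 64.1 to 83.1 CPM) did not overlap between the groups. No marker gene of these lists was at 0 in all libraries, and the part of these cells in the histone values was not tested. In pooled RNA after a pulldown, fewer cells of a type, less RNA per cell and a different recovery of that RNA cannot be told apart.

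Histone transcripts were a small part of each library and showed no shift as a family that exceeded the spread between libraries on the TMM scale. Summed over the 70 members they stood at 535, 479 and 438 CPM in antisense and at 568, 451 and 596 CPM in sense. The means were 484 ± 48.6 and 538 ± 77.0 CPM (SD, n = 3 each), a log2 ratio of -0.15 that turned to 0.58 on library totals alone, and the groups overlapped, with sense replicate 2 below 2 of the 3 antisense libraries. As a share of all counts, Gas5 included, members took 0.0700% (95% exact Clopper-Pearson limits 0.0678% and 0.0721%), 0.0593% (0.0574% to 0.0612%) and 0.0566% (0.0547% to 0.0586%) of antisense replicates 1, 2 and 3. In the sense libraries they took 0.0345% (0.0334% to 0.0356%), 0.0446% (0.0430% to 0.0463%) and 0.0458% (0.0443% to 0.0473%). Intervals cover counting error only. On this unscaled measure every antisense library lay above every sense library. Gas5 itself, which is part of the total, took the larger share in sense.

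By family, summed levels were 103 ± 9.13 CPM in antisense and 116 ± 20.4 CPM in sense for H1, 66.9 ± 11.3 and 80.6 ± 11.8 CPM for H2A, and 129 ± 10.5 and 129 ± 16.2 CPM for H2B (SD, n = 3 each). H3 stood at 67.9 ± 18.3 and 85.5 ± 13.9 CPM and H4 at 116 ± 4.69 and 127 ± 18.6 CPM. The groups overlapped in each of the 5 families, and on library totals alone each family's log2 ratio was positive, from 0.40 for H3 to 0.73 for H2B. The make-up of the histone pool was alike: H2B gave 26.7% of the summed level in antisense and 24% in sense, H4 24.04% and 23.7%, H1 21.4% and 21.5%, H3 14.04% and 15.9%, and H2A 13.8% and 14.98%. The chromosome 13 members summed to 399.7 ± 43.3 and 445 ± 68.8 CPM and the chromosome 3 members to 58.7 ± 7.42 and 66.8 ± 7.80 CPM, again with overlapping groups.

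**Figure D1:**
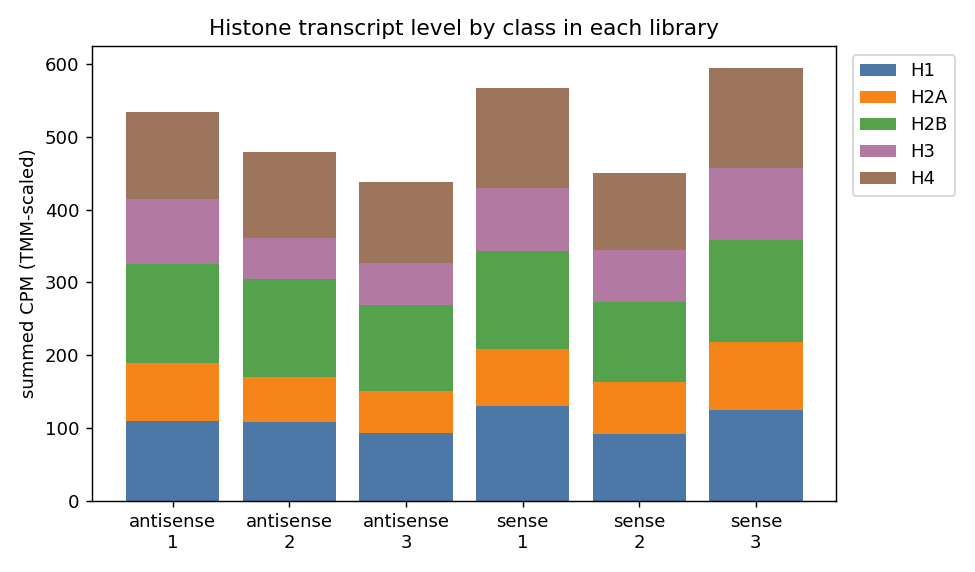
Summed TMM-scaled CPM of the 70 histone genes in each of the 6 libraries, stacked by family. The antisense libraries reach 535, 479 and 438 CPM and the sense libraries 568, 451 and 596 CPM on this scale, while on library totals alone the log2 ratio of antisense over sense is 0.58.

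Per kilobase of gene span the H4 gene H4c18 ranked first, at 75.4 CPM per kb over the 6 libraries. It carried all counts of its pair with H4c17, and their windows share a run of 285 bases. How reads were assigned between them was not tested, so its rank holds for assigned counts only. Next came the linker histone gene H1f4 at 42.4 and the H4 genes H4c4 at 34.9 and H4c8 at 33.7. H1f2 stood at 31.6, H4c3 at 30.3, H4c9 at 29.4 and H1f3 at 26.3 CPM per kb. The leading genes of the other families lay close together, with H3c10 at 24.9, H2ac24 at 24.9 and H2bc12 at 24.4 CPM per kb. At the low end, the testis genes H2ac1 and H2bc1, which encode TH2A and TH2B, stood at 0.055 and 0.699 CPM per kb and the testis linker histone gene H1f6 at 1.33. The 7 members whose span exceeded 1500 bases, H1f0 and H2bc21 among them, were left out of this order because the span is then no guide to transcript length.

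Of the 70 members 60 had enough counts to be tested, and 4 of them passed: H1f7 and H2bc21 were higher in antisense, and H1f0 and H2ac24 lower (edgeR quasi-likelihood test, Benjamini-Hochberg adjusted over all genes, false discovery rate 0.05). That is 6.67% of the tested members. Over all 20049 genes tested 22.6% passed, 18.2% as higher and 4.35% as lower, and among 15029 protein-coding genes tested 14.4% passed, 9.66% as higher and 4.78% as lower. Members were measured less sharply than those genes, with a median standard error of 0.27 on the log2 scale against 0.16 for protein-coding genes. Their median log2 fold change was -0.19, beside -0.07 for protein-coding genes and -0.01 for all genes. On library totals alone the median of all genes moved to 0.70 and that of the members to 0.57, so each direction given here is relative to the TMM scale. Of the tested members 39 had a negative and 21 a positive log2 fold change, and 43 (71.7%) lay within 0.5 of 0. Among protein-coding genes 9152 were negative and 5877 positive, and 84.1% lay within 0.5 of 0. Of all genes tested 10349 were negative and 9700 positive, and 73.1% lay within 0.5 of 0. For 5 members the antisense and sense values did not overlap (8.33%), against 36.6% of all genes tested (23.5% higher, 13.2% lower) and 30.3% of protein-coding genes (14.5% higher, 15.8% lower). These were H1f7, H2bc21 and H2bc6, higher in antisense, and H1f0 and H3c15, lower. The count called in each direction depends on single libraries: it ran from 1 to 3 higher and from 1 to 6 lower as each library was left out in turn. Without antisense replicate 1 it was 2 higher and 6 lower, which is 13.1% of the members tested in that setting, beside 19.6% of all genes.

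**Figure D2:**
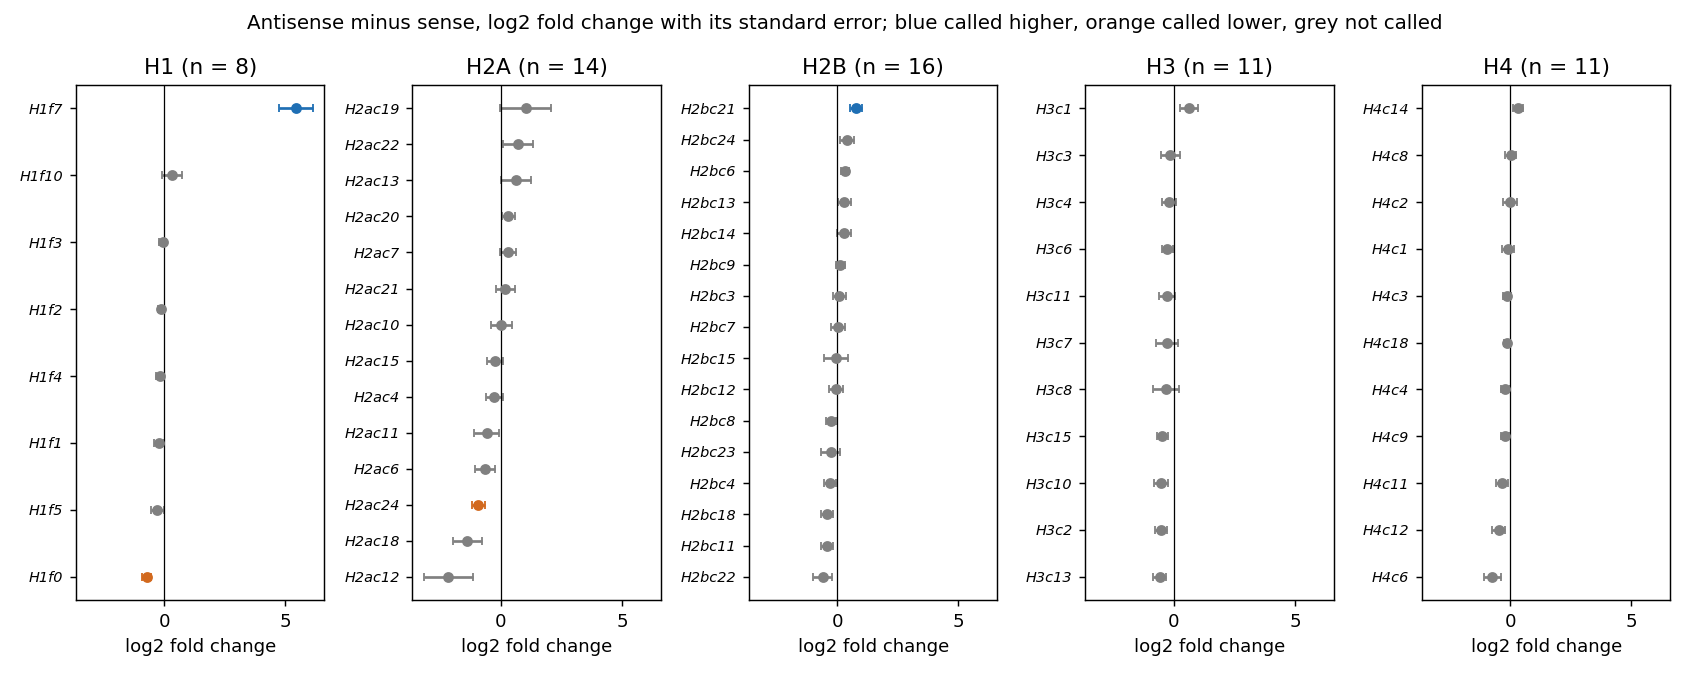
Log2 fold change, antisense minus sense on the TMM scale, with its standard error for the 60 tested histone genes, by family. H1f7 (5.44) and H2bc21 (0.79) were called higher and H1f0 (-0.72) and H2ac24 (-0.91) lower, with H1f0 at 0.04 on library totals alone. Of the 60 genes 43 (71.7%) lie within 0.5 of 0, beside 73.1% of all genes tested and 84.1% of protein-coding genes.

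Among tested members the largest log2 fold change was that of a linker histone. H1f7, which encodes H1T2, a linker histone known from spermatids, had 17, 32 and 22 counts in the antisense libraries and 1, 0 and 0 in the sense libraries. This is 2.24, 4.11 and 2.95 CPM against 0.158, 0 and 0 CPM. All 3 antisense libraries lay above all 3 sense libraries, from a level low in both. With 71 counts against 1, the scaled ratio was 57.7 (95% exact interval 10.03 to 2311, counting error only), and edgeR gave an adjusted p = 2.97e-05. H1f7 passed in all 12 alternatives in which it could be tested, and it was not tested at the higher minimum count. It met the main filter on low counts through its antisense libraries alone, the group in which it was high. With no filter on low counts H1f7 also passed (edgeR adjusted p = 2.70e-06). It lies at chromosome 15 from 98255982 to 98257307, with no overlapping gene in the table used. The nearest gene there, the noncoding Gm33967, lies 8282 bases away and has no row in the count table. The nearest gene with a row, the odorant receptor gene Olfr286, lies 21532 bases away. Olfr286 stood at 3.88, 4.08 and 5.22 CPM in antisense and 2.29, 2.98 and 2.86 CPM in sense, also without overlap. Its relation to H1f7 was not tested. The counts of H1f7 were whole numbers in every library. The other germ cell linker histones had too few counts for a test. H1f6 had 10, 6 and 10 counts in antisense and 3, 6 and 6 in sense, the oocyte gene H1f8 had 2, 1 and 3 against 1, 0 and 0, and the spermatid gene H1f9 had 4, 1 and 2 against 2, 0 and 0.

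H1f0, the linker histone of resting cells, stood at 10.1, 11.9 and 8.83 CPM in antisense and 21.2, 12.8 and 17.0 CPM in sense. Every antisense library lay below every sense library, with antisense replicate 2 and sense replicate 2 close together. Its mean was 10.3 ± 1.56 against 17.0 ± 4.21 CPM (SD, n = 3), 1.65 times as high in sense, and log2 fold change was -0.72 (SE 0.196, with adjusted p = 0.0145 in edgeR), which turned to 0.04 on library totals alone. Without sense replicate 1, its highest library, the log2 fold change was -0.54 and the adjusted p = 0.0851. Over all its alternatives the adjusted p ran from 0.00272 to 0.892.

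The replication-dependent linker histones moved little. H1f4, the most abundant member by CPM, stood at 34.1, 32.5 and 26.5 CPM in antisense and 37.7, 28.4 and 39.8 CPM in sense. H1f2 stood at 24.01, 23.3 and 18.3 CPM and 25.04, 21.1 and 25.7 CPM. The groups overlapped for both, with log2 fold changes of -0.18 (SE 0.140) and -0.13 (SE 0.141) that turned to 0.55 and 0.60 on library totals alone. H1f3 (-0.05, SE 0.140), H1f1 (-0.20, SE 0.221) and H1f5 (-0.28, SE 0.268) did not pass either. Outside this group, H1f10 (0.31, SE 0.415), which encodes H1X, also did not pass.

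Among H2B genes, H2bc21 was the one that passed. It encodes H2BE, an H2B variant known from olfactory and other neurons, and lies at chromosome 3 from 96221072 to 96223738. Its levels were 7.79, 7.34 and 7.86 CPM in antisense and 2.81, 5.68 and 4.84 CPM in sense. The antisense libraries lay tightly together and above all sense libraries, which spread over a wider range. Means were 7.67 ± 0.281 and 4.44 ± 1.48 CPM (SD, n = 3), which is 1.72 times as high in antisense (log2 fold change 0.79, SE 0.254; edgeR adjusted p = 0.0356). The call was lost in DESeq2 (adjusted p = 0.129) and without antisense replicate 1 (0.0953), 2 (0.0602) or 3 (0.0825) or sense replicate 1 (0.158) or 3 (0.0646), while the log2 fold change ran from 0.53 to 1.47 over all alternatives. H2ac20, an H2A gene 192 bases from H2bc21, stood at 6.39, 5.52 and 4.64 CPM in antisense and 3.66, 3.998 and 5.60 CPM in sense, with overlapping groups (log2 fold change 0.33, SE 0.262).

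The other 15 tested H2B genes did not pass, and their median, H2bc21 included, was 0.01. H2bc4 had 9.60, 15.3 and 10.9 CPM in antisense and 18.1, 8.45 and 17.2 CPM in sense (log2 fold change -0.29, SE 0.253, and 0.49 on library totals alone). H2bc12 had 15.9, 7.56 and 12.4 CPM and 12.9, 6.81 and 17.5 CPM (-0.05, SE 0.297, and 0.72 on library totals alone). In both genes the spread within each group was wider than the distance between the means. H2bc6 had 12.9, 14.3 and 13.4 CPM and 10.8, 12.4 and 9.20 CPM. Its groups did not overlap, yet it did not pass (log2 fold change 0.32, SE 0.167; edgeR adjusted p = 0.209).

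**Figure D3:**
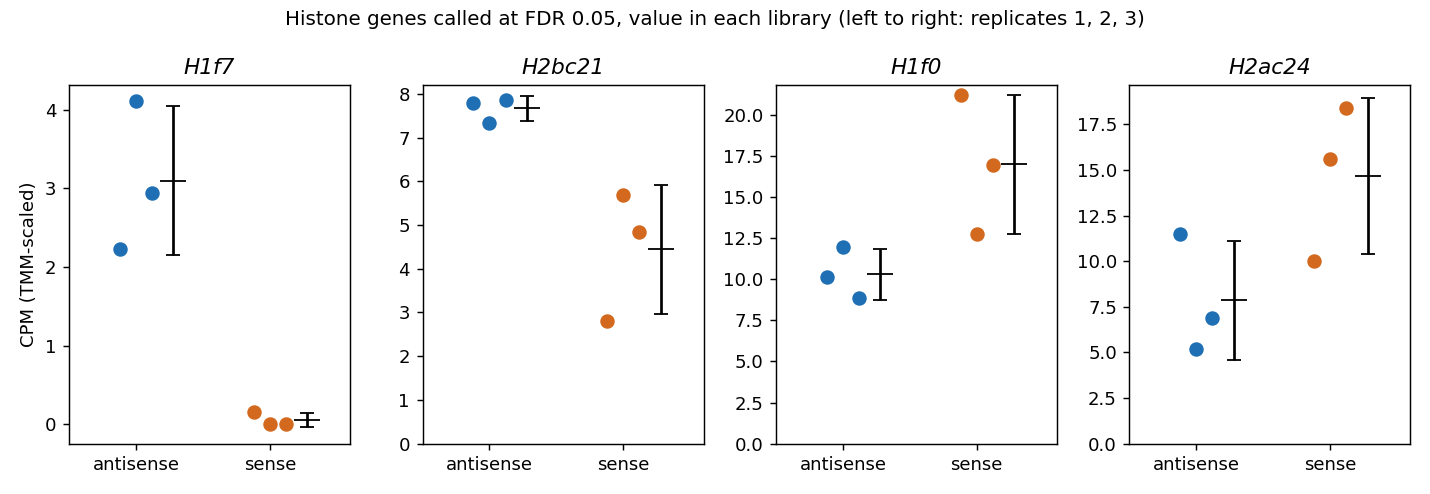
TMM-scaled CPM of the 4 histone genes that passed, in each of 3 antisense and 3 sense libraries (points), with the mean and SD of each group (bars). The groups do not overlap for H1f7, H2bc21 and H1f0, whereas H2ac24 at 11.48 CPM in antisense replicate 1 lies above 10.04 CPM in sense replicate 1, and on library totals alone H1f0 shows no decrease (log2 fold change 0.04).

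Many H2A genes varied from library to library. The median coefficient of variation of the 14 tested H2A genes was 41.8% within antisense and 46.1% within sense. For the sum of these 14 genes, untested members left out, it was 21.3% and 15.2%. For H3 genes the median was 40.1% and 27.0%, with 26.9% and 16.3% for the sum of the tested genes. The H3 sum thus varied more than that of H2A in both groups. For H2B the median was 29.6% and 26.8%, for H1 13.6% and 22.7%, and for H4 13.5% and 20.6%. Among tested H2A genes, H2ac12, H2ac13, H2ac18 and H2ac19 had libraries at 0 beside libraries of the same group at several CPM. H2ac12 stood at 5.50, 0 and 0 CPM in antisense and 0, 15.6 and 9.06 CPM in sense, and H2ac13 at 10.3, 13.2 and 11.8 CPM and 18.2, 0 and 4.37 CPM. Neither passed (edgeR adjusted p = 0.157 and 0.517), but H2ac12 passed as lower without antisense replicate 1 or sense replicate 1, and H2ac13 as higher without sense replicate 1. The table holds fractional estimates for most members: 7 of 68 with a count had whole numbers in every library, within 1e-06, and all 7 were H1 genes, against 11065 of 35305 genes overall. Estimates of this kind divide a read that matches several transcripts between them, so single values of members other than those 7 are uncertain.

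H2ac18 and H2ac19, whose shared upstream run is printed above, divided their counts differently from library to library. H2ac18 stood at 12.03, 4.52 and 0 CPM in antisense and 17.4, 16.0 and 8.88 CPM in sense. H2ac19 stood at 0, 6.80 and 9.79 CPM and 0, 0 and 8.36 CPM. In antisense replicate 1 and sense replicates 1 and 2 all counts of the pair were at H2ac18, and in antisense replicate 3 all were at H2ac19. Alone, neither passed (log2 fold change -1.36, SE 0.585, edgeR adjusted p = 0.118, and 1.03, SE 1.03, adjusted p = 0.536), but with antisense replicate 1 left out H2ac18 was called lower (adjusted p = 0.00562), as it was with no filter on low counts (0.0350) and with a replicate block (0.0263), and H2ac19 was called higher without sense replicate 3. Added together they stood at 12.03, 11.3 and 9.79 CPM in antisense and 17.4, 16.0 and 17.2 CPM in sense. The sum was steadier than either gene, at 11.04 ± 1.14 and 16.9 ± 0.760 CPM (SD, n = 3), 1.53 times as high in sense without overlap, and its log2 ratio turned to 0.10 on library totals alone. The pair was added up after its values were seen, so this is a description with no test.

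H2ac24 passed as lower, with an overlap between the groups. It lies at chromosome 13 from 21833024 to 21833475 and stood at 11.48, 5.19 and 6.90 CPM in antisense and 10.04, 15.6 and 18.4 CPM in sense. Means were 7.85 ± 3.25 and 14.7 ± 4.26 CPM (SD, n = 3), 1.87 times as high in sense (log2 fold change -0.91, SE 0.276; edgeR adjusted p = 0.0268). The call was lost without antisense replicate 2 (adjusted p = 0.0984) or 3 (0.0691) or sense replicate 2 (0.0608) or 3 (0.131), with a minimum count of 50 (0.0514) and on library totals alone (0.481). H2ac23, the copy that shares 200 bases of its window, had 0, 18.9 and 22.5 counts in antisense and none in sense. It was too low to be tested, and was called higher without a filter and without antisense replicate 1 or any single sense library. With both copies added, the values were 11.48, 7.62 and 9.91 CPM in antisense and 10.04, 15.6 and 18.4 CPM in sense, 1.52 times as high in sense, where H2ac24 alone was 1.87 times as high. The sum, also formed after the values were seen, overlapped between groups.

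**Figure D4:**
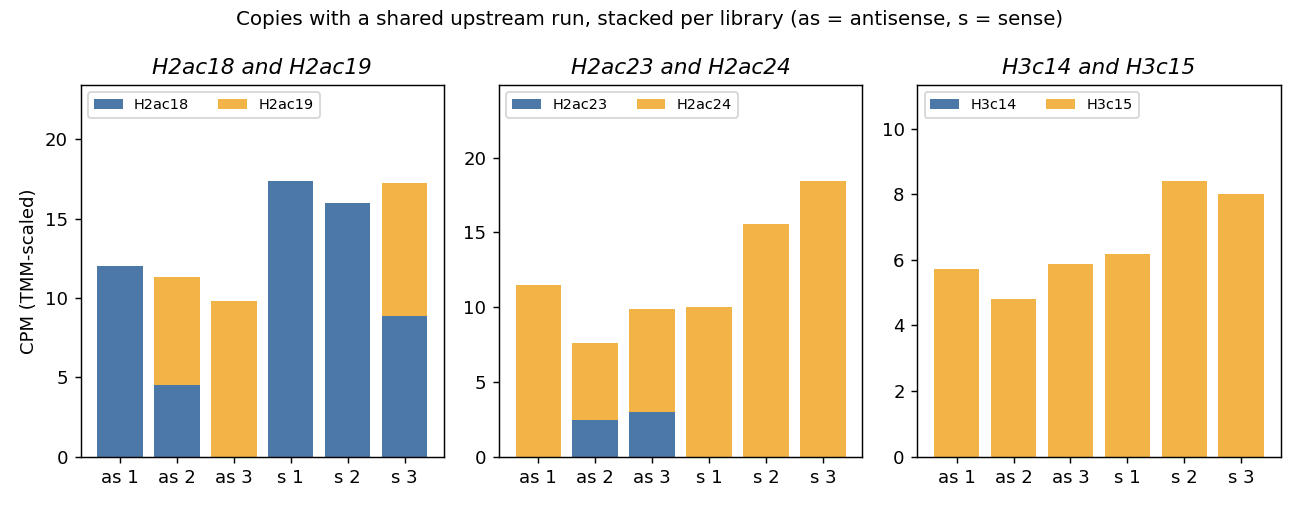
TMM-scaled CPM of 3 pairs of histone genes whose RefSeq windows share a run of over 50 bases, stacked for each library. The parts of H2ac18 and H2ac19 change from library to library while their sums lie at 9.79 to 12.03 CPM in antisense and 16.0 to 17.4 CPM in sense (a log2 ratio of 0.10 on library totals alone), and H3c14 is at 0 throughout.

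In the pairs H3c14 with H3c15 and H4c17 with H4c18, all counts were at 1 gene. H3c14 and H4c17 had 0 assigned counts in all 6 libraries, while H3c15 and H4c18 carried all counts of their pairs. At a floor of 3 counts this is up to 0.385 to 0.514 CPM of assigned counts per library. How reads were assigned between copies was not tested, so the floor sets no limit on the level of H3c14 or H4c17. H4c11 and H4c12 both had counts in all 6 libraries, from 28.8 to 49.7 and from 30.7 to 60.4. H3c15 had 5.72, 4.79 and 5.88 CPM in antisense and 6.18, 8.40 and 8.003 CPM in sense. Its groups did not overlap, yet it did not pass (log2 fold change -0.46, SE 0.224; edgeR adjusted p = 0.170).

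No H3 and no H4 gene passed among 11 tested of each, in edgeR or in DESeq2, and none had an unadjusted edgeR p under 0.05. H3 genes leaned lower on the TMM scale, with 10 of 11 log2 fold changes below 0 and a median of -0.28. Of 15029 protein-coding genes tested 9152 were below 0 as well. The summed H3 level turned to a log2 ratio of 0.40 on library totals alone. H3c10 stood at 6.61, 8.61 and 14.8 CPM in antisense and 13.1, 10.8 and 19.2 CPM in sense (log2 fold change -0.51, SE 0.273, and 0.22 on library totals alone). It passed as lower without antisense replicate 3, its highest antisense library (adjusted p = 0.0148). H3c6 stood at 15.7, 8.06 and 8.41 CPM and 13.8, 12.4 and 12.2 CPM (-0.26, SE 0.232, and 0.48 on library totals alone), and passed without antisense replicate 1 (adjusted p = 0.0383).

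H4 genes, which encode the most conserved core histone, had a median of -0.13, with a summed log2 ratio of 0.61 on library totals alone. H4c18 stood at 30.2, 29.4 and 28.1 CPM in antisense and 36.4, 25.8 and 33.7 CPM in sense (log2 fold change -0.13, SE 0.130, and 0.62 on library totals alone). H4c8 stood at 16.6, 15.4 and 12.2 CPM and 16.9, 8.26 and 18.4 CPM (0.02, SE 0.236). In both genes the sense libraries spread to either side of the antisense ones, with sense replicate 2 lowest. Sense replicate 2 was the lowest sense library for 37 of the 60 tested members, and it also had the smallest Gas5 share of the sense libraries. The same order was not counted over all genes, and a relation to the Gas5 share was not tested. With sense replicate 2 left out, 3 members were higher and 4 lower, H2bc11, H3c13 and H4c6 being the lower genes besides H1f0. This was 11.3% of the members tested in that setting, beside 24.2% of all genes.

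The authors' deposited table, which gives sense over antisense, held all 70 members, 66 with an adjusted p. Of those, 3 were under 0.05 in the authors' deposited table, where 16% of all rows with an adjusted p were. They were H1f7, higher in antisense, and H1f0 and H2ac24, higher in sense. For H2bc21 it gave -0.80 on the log2 scale (SE 0.360) and an adjusted p = 0.130 in the authors' deposited table.

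Of 10 replication-independent histone genes tested, 1 was lower and none higher in edgeR, which is 10%. Among protein-coding genes tested 14.4% passed, 4.78% as lower, and among all genes 22.6%, 4.35% as lower. So few genes cannot tell the list's share from these. In edgeR 1 of the 10 had an unadjusted p under 0.05, DESeq2 called none, and the median log2 fold change was -0.12. H2az1, which encodes the variant H2A.Z, stood at 11.7, 10.9 and 9.36 CPM in antisense and 19.7, 13.6 and 16.2 CPM in sense, with no overlap. It differed by -0.63 on the log2 scale (SE 0.176; edgeR adjusted p = 0.0172), a value that turned to 0.12 on library totals alone and lost its call when either antisense replicate 3 or sense replicate 1 was left out (adjusted p = 0.0570 and 0.0910). H2ax, the variant phosphorylated at DNA breaks, differed by -0.48 on the log2 scale (SE 0.276) and H3f3b, which encodes an H3 replacement variant, by -0.17 (SE 0.125), turning to 0.23 and 0.56 on library totals alone. Neither passed.

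Of 23 tested genes for the synthesis, processing and decay of histone transcripts, 1 was higher and 1 lower, and the median was -0.04. This is 8.7% called, beside 14.4% of protein-coding genes and 22.6% of all genes tested. Ccne2, which encodes cyclin E2, the partner of Cdk2 in activating histone transcription, stood at 15.6, 15.3 and 12.9 CPM in antisense and 2.40, 3.43 and 4.11 CPM in sense. The groups lay far apart (log2 fold change 2.14, SE 0.225; edgeR adjusted p = 4.38e-06), and Ccne2 passed in all 13 alternatives. In the table used its span overlaps Ints8, at a mean of 66.1 CPM, and the noncoding A630034I12Rik, which has no row in the count table. Strand was not stated and exons were not compared. Whether reads of those genes enter the values of Ccne2 was not tested. Sympk, which encodes the scaffold of the complex that cuts histone transcripts, was lower (-0.29, SE 0.0861; edgeR adjusted p = 0.0255), turned to 0.41 on library totals alone and lost its call without antisense replicate 1 (0.128) or sense replicate 2 (0.0602) or 3 (0.0753). Zfp473, a U7 snRNP partner, did not pass (0.66, SE 0.266) but did without sense replicate 2 (adjusted p = 0.00966).

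Of 22 histone chaperone genes, 2 were higher and 1 lower, with a median of -0.10. The share called was 13.6%, beside 14.4% of protein-coding genes and 22.6% of all genes tested. The H3-H4 chaperone genes Asf1a (0.46, SE 0.137) and Asf1b (1.42, SE 0.422, at 2.49 ± 0.246 CPM in antisense and 0.933 ± 0.551 in sense, SD, n = 3) were higher, with edgeR adjusted p = 0.0236 and 0.0235. Asf1a overlaps Mcm9, at a mean of 25.2 CPM. Nasp, a chaperone of H3 and linker histones, was lower (-0.30, SE 0.0939; edgeR adjusted p = 0.0310) and turned to 0.40 on library totals alone. Asf1a lost its call without either antisense replicate 1 or 2 or sense replicate 2 or 3 (adjusted p of up to 0.0896), Asf1b without antisense replicate 1 or 2 or sense replicate 1 or 2 (up to 0.111), and Nasp without any library but sense replicate 3 (up to 0.114). DESeq2 called none of the 3 (adjusted p = 0.108 for Asf1a, 0.148 for Asf1b and 0.0783 for Nasp), and a replicate block lost Asf1b (0.0596) and Nasp (0.0601).

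Of 22 cell division genes, 2 were higher and none lower in edgeR, with a median of -0.07, and DESeq2 called none. The edgeR share was 9.09%, beside 14.4% of protein-coding genes and 22.6% of all genes tested. Ube2c, a mitotic ubiquitin-conjugating enzyme gene, was higher by 0.93 on the log2 scale (SE 0.269; edgeR adjusted p = 0.0206) and Birc5, which encodes survivin, by 0.41 (SE 0.136; adjusted p = 0.0422). Ube2c lost its call without antisense replicate 1 or sense replicate 1 or 3 (adjusted p of up to 0.0991), and Birc5 without any library but antisense replicate 2 (up to 0.142). Rrm1, a ribonucleotide reductase gene, did not pass (0.18, SE 0.0933). The relation of these genes to the histone values was not tested.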

How the data were processed

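Total RNA libraries of a Gas5 pulldown, 3 antisense and 3 sense, were compared, and the 6 small RNA libraries were not used here. The submitters' processing notes name Salmon, DESeq and GRCm38, without versions. The annotation and the strand setting were not given in the sources used here. The authors deposited estimated counts per gene symbol and a comparison table with a mean normalised signal, log2 fold changes, p-values and a stat score (log2 fold change over its standard error), per the file headers.

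Estimated counts were rounded for testing. Rows were kept by filterByExpr (minimum count 10), scaled by TMM and tested two-sided, antisense minus sense, with edgeR 4.0.16 (R 4.3.3), adjusted by Benjamini-Hochberg over all genes tested. The standard error is the log2 fold change over the square root of F. CPM and sums used unrounded counts. Sums over families or copies have no test. Library totals of 5775052 to 10424167 counts limit precision. The steps were also run on simulated counts with 200 changed genes, their direction drawn at random. That setting lacks the uneven directions of these data, so it does not test the scaling.

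Described singly were members that passed, the 2 most abundant tested members per family, H1f0, and up to 3 genes of smallest p per related list. Any other member named was chosen after its values were seen. Members and lists were chosen with earlier results of these data known.

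Alternatives were RLE factors, library totals alone, Gas5 left out, a minimum count of 50, no filter, DESeq2 1.42.0, a replicate block and each library left out. Promoter windows are RefSeq's, and marker and gene lists were written by hand.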

Additional observations from a re-analysis of the deposited data

How the results depend on the processing

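On library totals alone 12804 genes were called higher and 62 lower, and 24 members higher and 1 lower. The members' median log2 fold change was then 0.57 and their summed log2 ratio 0.58, and the higher counts of the related lists were 6 for replication-independent histones, 16 for transcript processing, 17 for chaperones and 14 for cell division, with 0 lower in the first 3. That scaling also turned H1f0 (0.042), H1f2 (0.60), H1f4 (0.55), H2bc4 (0.49), H2bc12 (0.72), H3c6 (0.48), H3c10 (0.22), H4c18 (0.62), H2az1 (0.12), H2ax (0.23), H3f3b (0.56), Sympk (0.41) and Nasp (0.40). With a minimum count of 50, 1795 genes were higher and 402 lower, 27 members were tested with 1 higher and 1 lower, chaperones had 1 higher and 0 lower, and processing genes 0 lower. DESeq2 called 1 member higher, 0 chaperones in either direction, 0 cell division genes higher and 0 replication-independent histones lower. Without a filter 1 cell division gene was higher.

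A replicate block left 1 chaperone higher and 0 lower and 1 cell division gene higher, and added H2ac18 (adjusted p = 0.0263) to the called members. The labels name no pairs, so the main fit held no block. Deviations of log2 CPM from each gene's group mean were compared between antisense and sense libraries over 20049 genes. They correlated at 0.062, -0.076 and -0.0097 for same-numbered libraries, and at -0.150 to 0.159 for differently numbered ones.

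Leaving out each library gave 3392 to 3987 genes higher and 492 to 1100 lower (571 without antisense replicate 1, 534 and 492 without sense replicates 1 and 3), members 1 to 3 higher and 1 to 6 lower, their median -0.26 to -0.03, and their summed log2 ratio -0.27 to -0.08. Related lists ran from 1 to 2 higher and 0 to 2 lower (processing), 0 to 2 and 0 to 1 (chaperones), 0 to 2 higher (cell division) and 0 to 1 lower (replication-independent histones). H2bc12 ran from -0.35 to 0.27 and H4c8 from -0.27 to 0.22. Library totals include Gas5. The cause was not tested. RLE factors and Gas5 left out kept the 4 calls among members. Depth limits H1f7 and Asf1b, with few counts per library.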
